A study of Mus musculus with 6 samples.

Results

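The genes of the constitutive proteasome were examined in B16F10 cells, a mouse melanoma line, with and without depletion of OSGEP. Members were all genes named Psma, Psmb, Psmc, Psmd, Psme, Psmf or Psmg followed by a number, except Psmb8, Psmb9 and Psmb10, which encode the interferon-inducible subunits. This rule found 45 of the 55487 genes listed and used no measured value. Control cells (shCtr, n = 3) carried a scramble shRNA and were labelled wild type. Depleted cells (shOSGEP, n = 3) carried the OSGEP hairpin that the labels number 2 and were labelled as a knockdown of OSGEP. The 6 libraries were made from polyA RNA of this single line, and the methods of the study name 3 independent infections. Whether same-numbered libraries of the groups share an infection round is not stated. The labels give no treatment, and the group rests on 1 hairpin only. Library totals ran from 18915587 to 29487384 counts.

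The proteasome degrades proteins tagged with ubiquitin. Its 20S core is a barrel made of an outer ring of alpha subunits (Psma genes) and an inner ring of beta subunits (Psmb genes), each ring present in duplicate, and Psmb5, Psmb6 and Psmb7 carry the proteolytic sites. The 19S particle caps the barrel, binds and unfolds the substrate with a ring of ATPases (Psmc genes) and holds receptor, scaffold and deubiquitinating subunits (Psmd genes). Alternative caps are encoded by Psme1 and Psme2 (PA28 alpha and beta), Psme3 (PA28 gamma) and Psme4 (PA200), Psmf1 encodes the inhibitor PI31, and Psmg1 to Psmg4 encode chaperones of 20S assembly. NRF1, the product of Nfe2l1, is a transcription factor of 20S and 19S subunit genes and acts through antioxidant response elements. OSGEP is the catalytic subunit of KEOPS, which places the t6A modification at position 37 of tRNAs that read ANN codons, and the study concerns tRNA-modifying enzymes in protein homoeostasis.

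To show what these promoters look like in sequence, the window from 250 bases before to 50 bases after the start site was read from RefSeq (GRCm38.p6) for the 37 members with an entry. The core of the antioxidant response element was searched as TGACNNNGC on both strands. It was found in 6 of 37 members (16.2%), against 16.8% of the tested genes with an entry and 14.0% of all 27025 genes. These shares count a gene once if any of its promoters held a match. Counted per promoter entry, the share was 12.4% of all 32851. The share in the members was thus close to that in all tested genes. The 6 members were Psmb5, Psmb6, Psmc6, Psmd9, Psmd12 and Psme4. The match lay upstream of the start site in 5 of them, and these are given as 30 bases along the gene's own strand, 5′ to 3′, with the match in capitals.
Psmb5, chr14:54618023-54618052, minus strand: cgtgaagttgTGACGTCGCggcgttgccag
Psmb6, chr11:70525327-70525356, plus strand: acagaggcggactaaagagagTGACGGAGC
Psmd9, chr5:123228149-123228178, plus strand: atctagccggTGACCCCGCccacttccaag
Psmc6, chr14:45329587-45329616, plus strand: ccagccagtaGCTAAGTCAggcattgctca
Psmd12, chr11:107479278-107479307, plus strand: tctGCTGTGTCAcatttgcccccctcagac
In Psmc6 and Psmd12 the match was on the opposite strand and reads GCNNNGTCA. The matches of Psmb5, Psmb6 and Psmd9 began 47, 9 and 31 bases before the start site, and those of Psmc6 and Psmd12 lay 227 and 247 bases before it. The CCAAT box, searched as CCAAT on both strands, was found in 13 of 37 members (35.1%), against 43.5% of the tested genes and 41.1% of all genes. Counted per promoter entry, its share was 37.4%. The motifs differ in their letters and can share at most a base at their ends. Such a match is a stretch of letters and not a measured binding site.

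Depletion of the target was checked first. Osgep was measured at 20.6, 58.6 and 21.8 CPM (counts relative to the effective library size that TMM gives) in shCtr replicates 1 to 3 and at 4.28, 0.542 and 5.52 CPM in shOSGEP, with every shOSGEP library below every shCtr library. Its Log2FC (log2 fold change, shOSGEP against shCtr) was -3.29 (SE 0.876). By edgeR's quasi-likelihood test the unadjusted p was 0.00524, the Benjamini-Hochberg adjusted p over all 12669 genes tested was 1.00 and the exact permutation test gave p = 0.1, the smallest that 3 against 3 allow. In DESeq2 the adjusted p was 0.0386. The libraries of replicate 2 stood apart: shCtr replicate 2 had a TMM factor of 0.690, the other 5 libraries lay between 1.04 and 1.14, and shOSGEP replicate 2 had the lowest summed level of the melanoma markers. A smooth trend on transcript GC content and length took up 62.9% of the variance in how shCtr replicate 2 deviated from the gene means, beside 50.5% and 24.3% in shCtr replicates 1 and 3 and 53.3%, 17.6% and 22.1% in shOSGEP. All 7 melanoma and melanocyte markers were present in every library, with a summed level of 3551 CPM in shOSGEP replicate 2, 29599 CPM in shCtr replicate 2 and 15387 to 18083 CPM in the other 4. Single markers did not all follow the sum. In shCtr replicate 2 Pmel was at its highest, 13300 CPM, and Mitf at its lowest, 29.3 CPM. The 15 markers of other cell types (T cells, leukocytes, macrophages, endothelium, keratinocytes and fibroblasts) summed to between 6.23 and 8.70 CPM, and 7 of them, Ptprc, Cd3e, Cd3d, Cd8a, Adgre1, Cdh5 and Dcn, had no count in any library. In bulk RNA, less RNA per cell and fewer cells of a kind cannot be told apart.

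No proteasome member passed a threshold. Of the 45, 43 passed the filter on low counts. The other 2 are tissue-restricted subunits: Psma8, of testis, had at most 1 count in any library and Psmb11, of thymic cortical epithelium, at most 2. Among the 43, the edgeR quasi-likelihood test called 0 at a Benjamini-Hochberg adjusted p under 0.05, against 0% of all tested genes. The threshold of the study, which asks for a Log2FC above 0.5 or below -0.5 and an unadjusted p under 0.05, was passed by 0 of 43 against 2.02% of all tested genes (1.59% higher and 0.426% lower in shOSGEP). An unadjusted p under 0.05 was likewise reached by 0, the lowest being 0.247 for Psmd13. DESeq2 and limma-voom with sample quality weights called 0 members at an adjusted p under 0.05, against 0.113% and 0.0237% of all genes. In no member did the shCtr and shOSGEP libraries separate without overlap, which 3.49% of tested genes did with shOSGEP higher and 2.87% with shOSGEP lower.

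The fitted values leaned to the lower side without passing the test. The median Log2FC over the 43 members was -0.21, beside -0.03 over all genes tested. Of the members 35 had a negative value and 8 a positive one, beside 6671 and 5998 of the 12669 tested genes. The members' values ran from -0.74 for Psmd13 to 0.50 for Psma4. Below -0.5 were 10 and above 0.5 were 0, beside 2322 and 1903 of the 12669 tested genes. SEs lay between 0.354 and 0.869 and exceeded the size of the Log2FC in every member except Psma4, Psma5, Psmc4, Psmd2, Psmd3 and Psmd13, and the 95% intervals of single members reached from -2.34 to 2.07. Without shCtr replicate 2 alone, which leaves its same-numbered shOSGEP library unmatched, the median was 0.16, with 32 members positive, and without any 1 of the other 5 libraries it lay between -0.47 and -0.07. It stayed negative without both libraries of replicate 2 (-0.11, 32 members negative) and with the replicate number as a block (-0.19, 33 members negative). Under upper-quartile scaling it was -0.07, with 26 members negative and 17 positive, beside a median of 0.07 over all genes. By subcomplex, the median Log2FC was 0.14 for 20S alpha (3 of 7 negative), -0.36 for 20S beta (7 of 7), -0.32 for the 19S ATPases (5 of 6), -0.25 for the other 19S genes (12 of 14), -0.07 for the activators (3 of 4) and -0.11 for the assembly chaperones (4 of 4). Without shCtr replicate 2 the beta median was 0.40 and the ATPase median 0.11. With offsets for GC content and length, described below, the alpha median was -0.35.

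**Figure D1:**
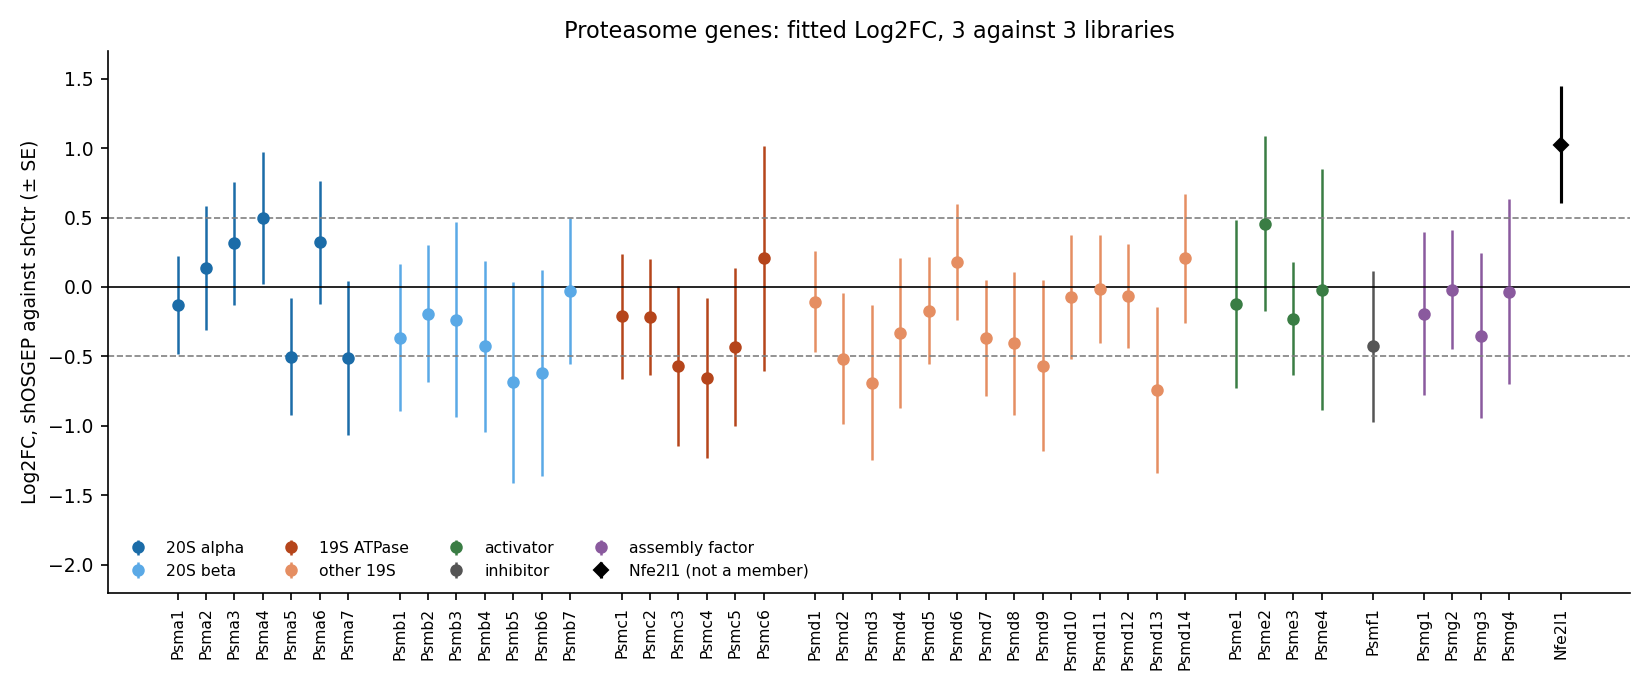
Fitted Log2FC (shOSGEP against shCtr, 3 libraries against 3) of the 43 tested proteasome genes, coloured by subcomplex, with the transcription factor gene Nfe2l1 at the right; points are edgeR estimates, bars are ± 1 SE and dashed lines mark 0.5 and -0.5. All 7 beta subunits sit below 0, the alpha subunits lie on both sides, and Nfe2l1 at 1.02 stands above every member. These estimates are without offsets for GC content and length, with which the alpha median was negative.

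The alpha ring forms the gate of the 20S barrel. Psma4 had the highest Log2FC of its ring and of all members, 0.50 (SE 0.471). It was measured at 148, 82.3 and 121 CPM in shCtr and 132, 256 and 108 CPM in shOSGEP. Only the replicate 2 pair was higher in shOSGEP, and in the other pairs shOSGEP was lower. Psma7 had the lowest value of the ring, -0.51 (SE 0.553), from 199, 596 and 228 CPM in shCtr and 152, 325 and 241 CPM in shOSGEP. The groups overlapped, with shCtr replicate 2 far above the other 5 libraries. Psma2, the alpha subunit with the lowest level per length, was at 149, 202 and 145 CPM against 128, 279 and 138 CPM (Log2FC 0.14, SE 0.447). Its mean of 165 CPM in shCtr was above those of Psma1, Psma4, Psma5 and Psma6 and below those of Psma3 and Psma7. The rank thus rests on the transcript length used, which was 2911 bases for Psma2.

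The 3 proteolytic subunits lie in the beta ring. Psmb5 (chymotrypsin-like activity, minus strand of chromosome 14 from 54614119 to 54618022, GRCm38) was measured at 122, 670 and 186 CPM in shCtr and 91.1, 304 and 214 CPM in shOSGEP. Psmb6 (caspase-like activity, plus strand of chromosome 11 from 70525367 to 70527858) was measured at 132, 755 and 189 CPM against 105, 361 and 234 CPM. Both shared one pattern, with replicate 2 highest in each group and shOSGEP lower than shCtr in replicates 1 and 2 but higher in replicate 3. Psmb7 (trypsin-like activity, minus strand of chromosome 2 from 38588036 to 38644087) was at 193, 445 and 238 CPM in shCtr and 174, 451 and 233 CPM in shOSGEP, so each same-numbered pair was close to equal. The Log2FC was -0.69 (SE 0.722) for Psmb5, -0.62 (SE 0.744) for Psmb6 and -0.03 (SE 0.526) for Psmb7. Their 95% intervals were -2.34 to 0.97, -2.32 to 1.09 and -1.23 to 1.18, which leave room for lower and for higher levels. Psmb7 overlaps Nek6 on the opposite strand and was counted without a stated strand, so part of its reads is uncertain.

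Among the beta subunits without a proteolytic site, Psmb3 had the highest level per length of all members, and was measured at 176, 786 and 242 CPM in shCtr and 155, 574 and 295 CPM in shOSGEP (Log2FC -0.24, SE 0.701). Psmb2 had the lowest level per length of its ring and was at 80.0, 177 and 92.1 CPM against 66.6, 152 and 87.6 CPM (Log2FC -0.19, SE 0.496). In Psmb2 every shOSGEP library was below its same-numbered shCtr library, by log2 ratios of -0.26, -0.22 and -0.07, and the groups still overlapped.

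The 19S ATPases unfold the substrate and feed it to the core. Psmc4 had the lowest Log2FC of the ring, -0.66 (SE 0.579), from 130, 496 and 197 CPM in shCtr and 108, 221 and 193 CPM in shOSGEP. Each shOSGEP library was below its same-numbered control, by 0.26, 1.17 and 0.03 on the log2 scale. Psmc5, the most abundant ATPase transcript per length, was at 226, 773 and 352 CPM against 197, 449 and 355 CPM (Log2FC -0.43, SE 0.568). Psmc6 had the only positive value of the ring, 0.21 (SE 0.812), and the widest spread: 164, 10.7 and 79.4 CPM in shCtr and 138, 67.7 and 87.6 CPM in shOSGEP. In shCtr replicate 2 its level was 0.0879 times the mean of shCtr replicates 1 and 3, whereas Psmb6 in the same library was at 4.71 times that mean.

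The remaining 19S genes encode scaffold subunits, ubiquitin receptors, the deubiquitinase Psmd14 and the chaperones Psmd5, Psmd9 and Psmd10, which bind the ATPases during assembly and are not part of the finished particle. Psmd13, a scaffold subunit of the lid, had the lowest Log2FC of all members, -0.74 (SE 0.597), from 146, 623 and 247 CPM in shCtr and 129, 218 and 260 CPM in shOSGEP. Almost all of that difference lay in the replicate 2 pair, with log2 ratios of -0.18, -1.52 and 0.08. Psmd13 also overlaps Sirt3 on the opposite strand, with the same uncertainty of strand. That uncertainty holds for further members, among them Psma4 (AY074887), Psme1 (Emc9) and Psmd9 (Hpd). Psma2 overlaps AW209491 on its own strand. Psmd14 had the highest value, 0.21 (SE 0.465), from 140, 50.8 and 106 CPM against 119, 131 and 91.4 CPM, and again only the replicate 2 pair was higher in shOSGEP. Psmd8 was at 356, 912 and 434 CPM against 290, 575 and 422 CPM (Log2FC -0.40, SE 0.514). The chaperone gene Psmd10 was at 27.9, 14.2 and 19.3 CPM against 17.7, 23.9 and 16.7 CPM (Log2FC -0.07, SE 0.445). Its replicate 1 ratio of -0.66 was the only one beyond 0.5 among the 43 members in that pair. Without the 3 chaperones the median Log2FC of the other 19S genes was -0.33 in place of -0.25.

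The alternative caps bind the 20S core in place of the 19S particle and open its gate without ATP. Psme1 was at 38.5, 132 and 57.2 CPM in shCtr and 36.0, 110 and 63.5 CPM in shOSGEP (Log2FC -0.12, SE 0.603). Its partner Psme2 was at 34.5, 75.4 and 40.8 CPM against 30.4, 132 and 43.8 CPM (Log2FC 0.46, SE 0.629), with shOSGEP replicate 2 the highest library. A close copy of the latter gene, Psme2b, held 40 to 237 counts per library, so the reads of the pair are uncertain. Psme3, a nuclear activator, was at 193, 361 and 255 CPM against 191, 256 and 244 CPM (Log2FC -0.23, SE 0.409). Psme4 was at 120, 8.26 and 101 CPM against 107, 30.4 and 88.4 CPM (Log2FC -0.02, SE 0.869), with both replicate 2 libraries far below the other 4. The inhibitor gene Psmf1 was at 45.3, 166 and 73.3 CPM against 50.2, 77.2 and 84.3 CPM (Log2FC -0.43, SE 0.544), and it and Psmg2 were the 2 members that were higher in shOSGEP in the replicate 1 pair.

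The chaperones of 20S assembly pair and stack the alpha subunits before the beta ring is added. Their fitted values lay between -0.35 and -0.02. Psmg2 was at 28.8, 40.3 and 25.1 CPM in shCtr and 29.5, 41.0 and 22.4 CPM in shOSGEP (Log2FC -0.02, SE 0.431). Psmg3 was at 27.7, 97.7 and 33.5 CPM against 24.9, 57.8 and 41.9 CPM (Log2FC -0.35, SE 0.595). Psmg4, with the lowest mean CPM of the tested members, was at 6.03, 18.2 and 5.76 CPM against 5.49, 16.9 and 6.92 CPM (Log2FC -0.03, SE 0.668). In each of the latter pair of genes shCtr replicate 2 was the highest library.

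Replicate numbers in the labels run through both groups, so same-numbered libraries were also set side by side. In replicate 1 the log2 ratio (shOSGEP over shCtr) of the 43 members had a median of -0.19 and an SD of 0.139. Of the members 41 were lower in shOSGEP, beside 6753 of the 12669 tested genes. In replicate 3 the median was -0.06 and the SD 0.174, with 26 lower and 17 higher, beside 6550 and 6115 of all tested genes. In both pairs the members were less spread than all tested genes, whose SDs were 0.470 and 0.437 around medians of -0.03 and -0.01. The tested genes were not matched to the members in level, and whether level accounts for the difference was not tested. Replicate 2 was unlike the others, with a median of -0.29, an SD of 0.938 and a range from -1.52 to 2.65, beside an SD of 1.49 over all genes. Ratios beyond 0.5 in either direction numbered 1, 26 and 0 of 43 in replicates 1 to 3, beside 2151, 9509 and 1664 of the 12669 tested genes. The share was thus lower in the members than over all tested genes in each pair. Across the 3 pairs, 12 members were lower in shOSGEP in every pair, namely Psma5, Psmb1, Psmb2, Psmc1 to Psmc4, Psmd2, Psmd5, Psmd7, Psmd8 and Psme3, and 0 were higher in every pair, beside 2177 and 2227 of all 12669 tested genes. Leaving out both libraries of replicate 2, the fitted Log2FC of the 43 members lay between -0.45 and 0.19 with a median of -0.11, 0 were beyond 0.5 and 0 had an unadjusted p under 0.05. SEs were then 0.254 to 0.484.

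**Figure D2:**
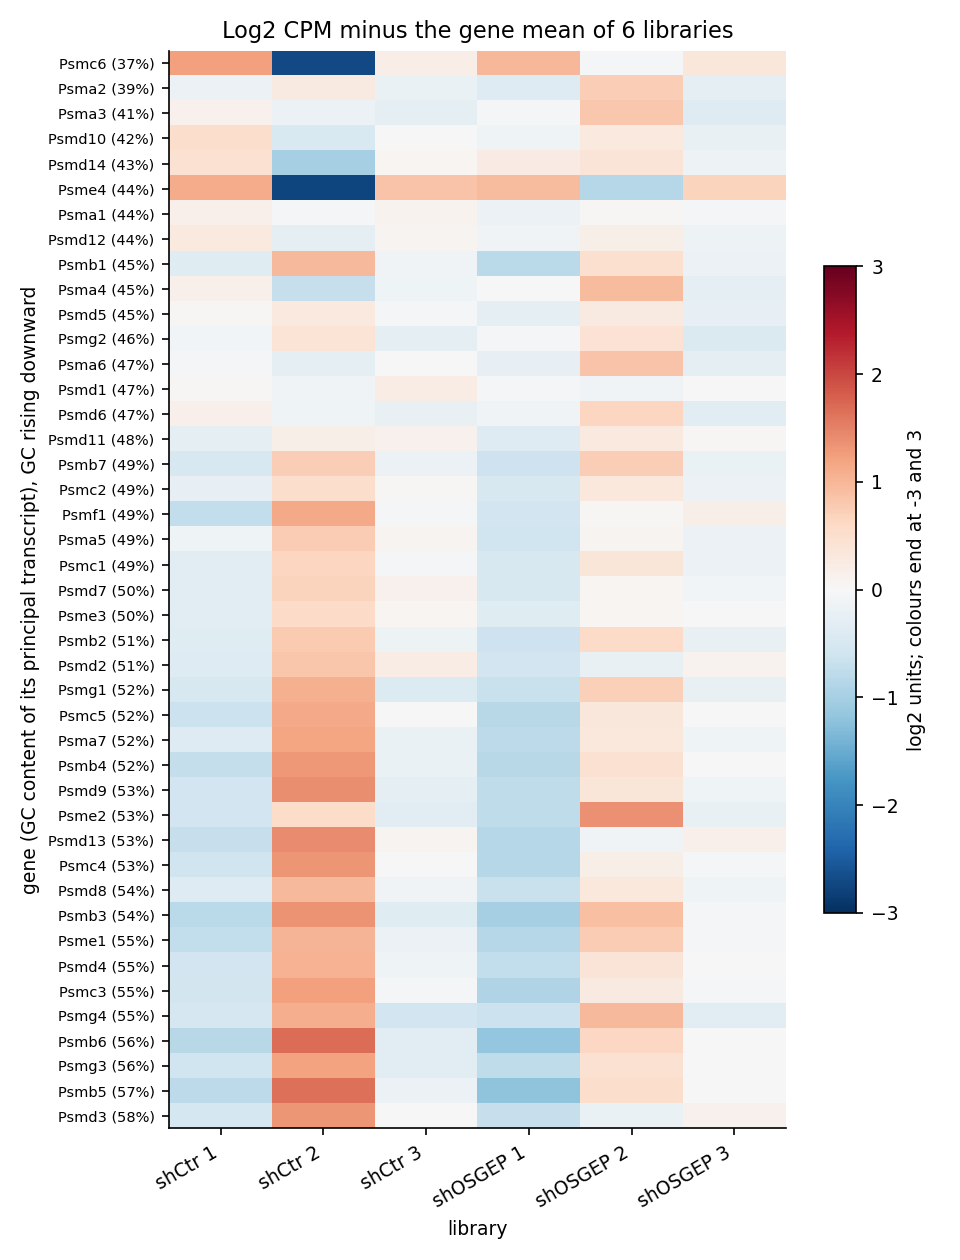
Log2 CPM of the 43 tested proteasome genes in the 6 libraries, each gene set to 0 at its mean over the libraries and ordered by the GC content of its transcript, lowest at the top (red above the gene mean, blue below). shCtr replicate 2 runs from blue at the top to red at the bottom, and 19 of the 20 members over 50% GC had their highest value in that library. The like share over all tested genes is not shown.

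Of the replicate 2 libraries, shCtr replicate 2 in particular ordered the members by base composition. GC content of the principal transcript ran from 37.0% for Psmc6 to 58.3% for Psmd3. Of the 20 tested members over 50% GC, 19 had their highest value of all 6 libraries in shCtr replicate 2 and all 20 their lowest in shOSGEP replicate 1. Of the 23 members up to 50% GC, 8 had their highest and 8 their lowest value in shCtr replicate 2. These counts cover members only. The like shares over all tested genes are not given here, so the pattern is not shown to be particular to the members. Across the 43 members, the deviation of shCtr replicate 2 from the mean of shCtr replicates 1 and 3 had a Pearson r of 0.79 and a Spearman rho of 0.87 with GC content. The like deviation of shOSGEP replicate 2 had r = 0.37 and rho = 0.34. The replicate 2 ratio had r = -0.77 and rho = -0.76, the replicate 3 ratio r = 0.62 and rho = 0.70, and the replicate 1 ratio r = 0.14 and rho = 0.15. These values describe genes within the same few libraries and are not tests. The fitted Log2FC followed the same axis (r = -0.65, rho = -0.67), with a median of -0.43 in the members over 50% GC and -0.07 in the rest. With offsets for each library's trend on GC content and length, the relation had the opposite sign (r = 0.35, rho = 0.35). The ring medians differed too: that of the 20S alpha genes, whose median GC content was 45.0%, was 0.14 without and -0.35 with the offsets. The beta genes had a median GC content of 52.2%. With each library's trend removed, the alpha genes had median ratios of -0.23, -0.50 and -0.15 in replicates 1 to 3. The beta genes then had -0.13, -0.07 and 0.01, so the beta ring was no longer the lower. Whether GC content produced the spread of replicate 2 was not tested.

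**Figure D3:**
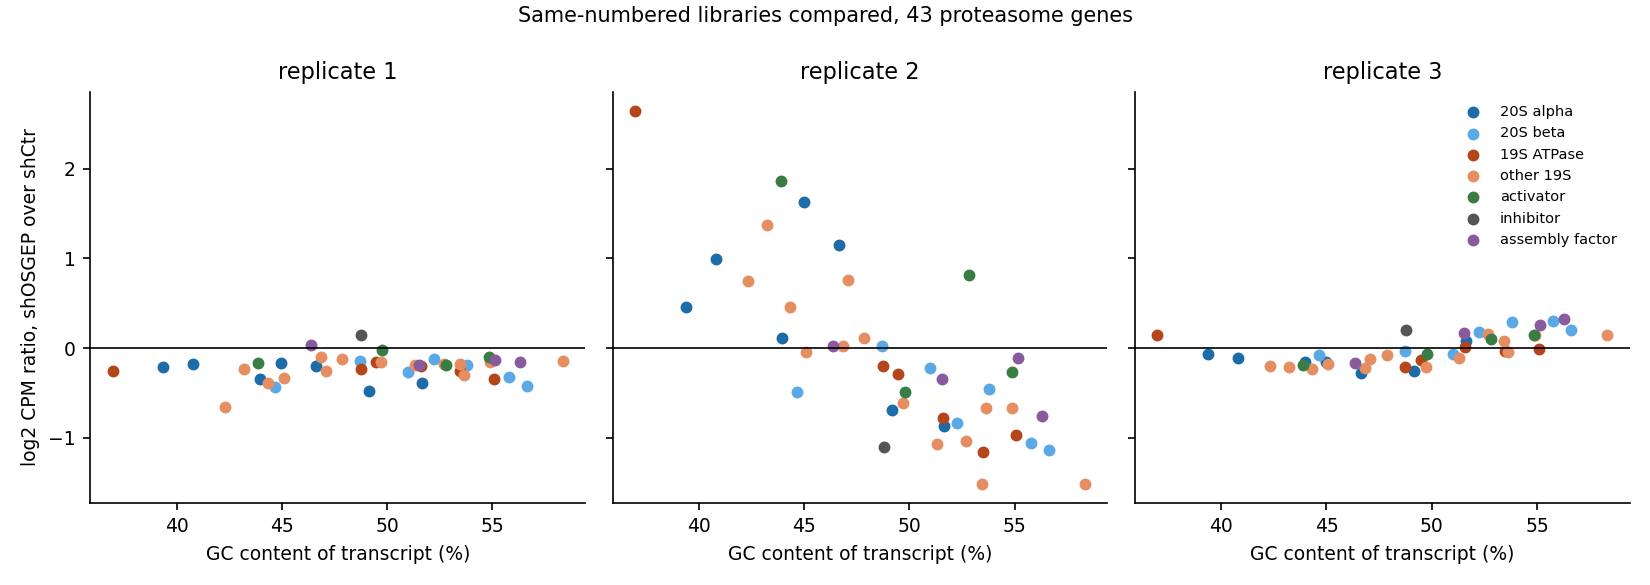
Log2 CPM ratio of shOSGEP over shCtr in each same-numbered pair of libraries, plotted against transcript GC content for the 43 tested proteasome genes, coloured by subcomplex. The points form a narrow band near 0 in replicates 1 and 3 and descend from 2.65 for Psmc6 at 37.0% GC to -1.52 at the highest GC contents in replicate 2.

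Together the 45 members took 0.661%, 0.952% and 0.762% of all counts in shCtr replicates 1 to 3 and 0.588%, 1.03% and 0.750% in shOSGEP. The share was thus highest in both replicate 2 libraries and the groups overlapped. On TMM-scaled sizes the sums were 6034, 13806 and 7316 CPM in shCtr and 5171, 9610 and 7199 CPM in shOSGEP.

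Levels of different subunits were compared per transcript length, as TPM (counts per kilobase, scaled to the same total in every library). Ranks therefore rest on the length used for each gene, which was 2911 bases for Psma2 and 914 for Psma7. Within a 20S core the alpha and beta subunits are present in equal number, and so are the subunits within a 19S particle. The transcripts were not equally abundant. In shCtr the highest mean of any member was that of Psmb3, 777 ± 330 TPM (SD, n = 3), and the lowest that of the alternative cap gene Psme4, 25.1 ± 20.7 TPM. In the alpha ring the means ran from 98.9 TPM for Psma2 to 581 TPM for Psma7, and in the beta ring from 222 TPM for Psmb2 to 777 TPM. Among the ATPases they ran from 80.7 TPM for Psmc6 to 537 TPM for Psmc5, among the other 19S genes from 27.6 TPM for the chaperone gene Psmd10 to 592 TPM for Psmd8, and among the assembly chaperones from 27.6 TPM for Psmg4 to 91.3 TPM for Psmg3. The proteolytic subunits were at 526 ± 275 TPM (Psmb5), 643 ± 365 TPM (Psmb6) and 412 ± 46.2 TPM (Psmb7), with wide SDs for Psmb5 and Psmb6. In each of the 6 libraries Psmb6 was above Psmb5, while the place of Psmb7 varied. The median over the beta genes was 294, 455 and 448 TPM in shCtr replicates 1 to 3 and 239, 590 and 415 TPM in shOSGEP, above the alpha median of the same library in all 6 (244, 105 and 227 TPM, then 209.5, 202 and 192 TPM).

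The order of the subunits was compared between libraries. Over the 31 subunits of the 20S core and the finished 19S particle, the Spearman rho of log2 TPM was 0.97 between shCtr and shOSGEP in replicate 1, 0.86 in replicate 2 and 0.98 in replicate 3, and 0.87 between shCtr replicates 1 and 3. It was lowest, 0.77, between shCtr replicates 1 and 2, was 0.96 between shCtr replicates 2 and 3, and lay between 0.85 and 0.89 among the shOSGEP libraries. The SD of log2 TPM over these subunits was 0.608, 1.71 and 0.840 in shCtr and 0.598, 1.01 and 0.915 in shOSGEP. Subunit levels were thus most uneven in shCtr replicate 2, the library in which Psmc6 was lowest. Psme4, which is not among the 31, was also lowest there.

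**Figure D4:**
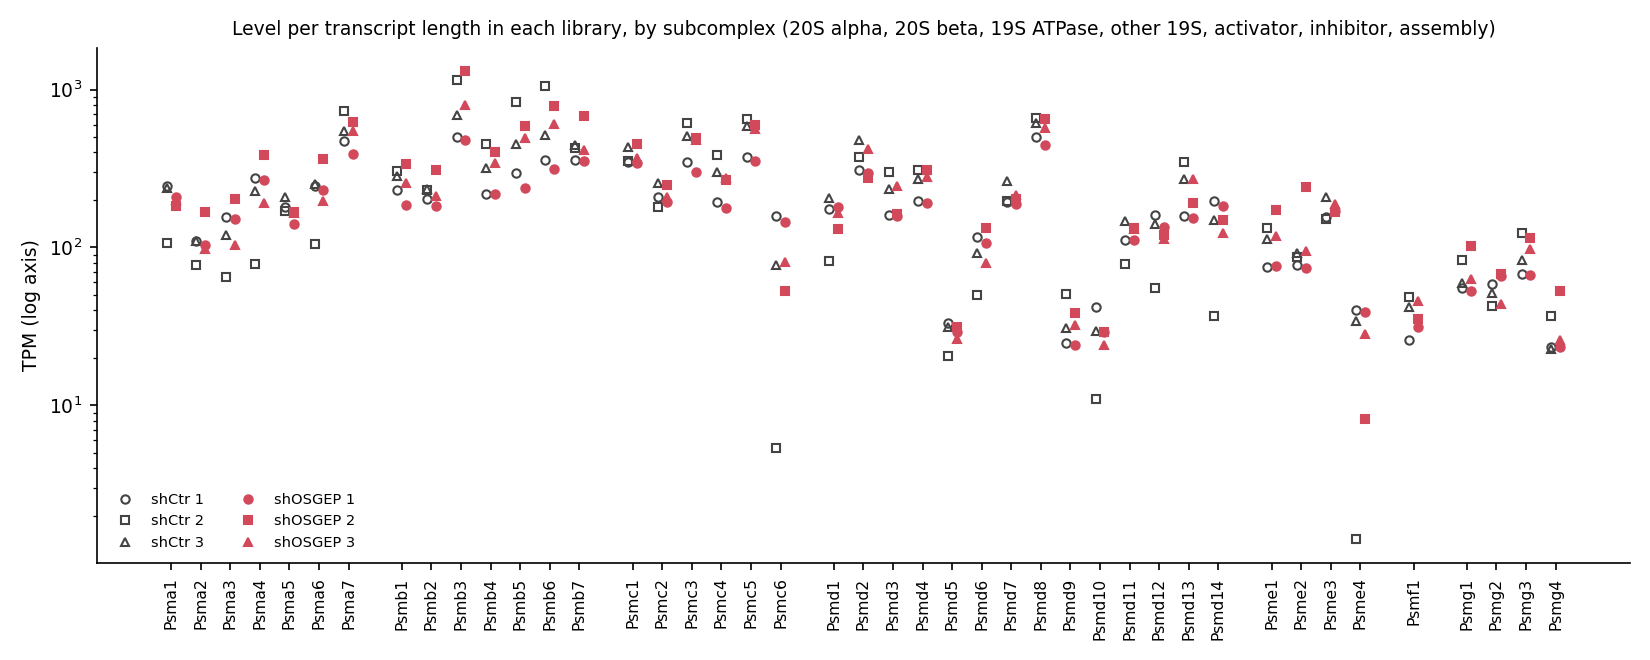
TPM (log axis) of each tested proteasome gene in the 6 libraries, grouped by subcomplex; open symbols are shCtr, filled symbols shOSGEP, and circles, squares and triangles are replicates 1, 2 and 3. The beta subunits and Psmd8 lie near the top, Psmd10, Psme4 and Psmg4 near the bottom, and the open squares of Psmc6 and Psme4 lie far below the other libraries of those genes.

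Since OSGEP acts on tRNAs that read ANN codons, the share of such codons was counted in each coding sequence. It was 28.6% in the median member and 27.0% in the median tested gene, and ran from 21.6% in Psmb5 to 35.0% in Psme3. Across the 43 members the share had a Pearson r of 0.34 and a Spearman rho of 0.31 with the Log2FC, 0.06 and 0.10 with the replicate 1 ratio, 0.33 and 0.35 with the replicate 2 ratio and -0.36 and -0.38 with the replicate 3 ratio, so the direction differed between pairs. The same share had r = -0.25 and rho = -0.25 with GC content. The counts measure transcripts and hold no value on decoding.

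The other genes of the pathway were taken from a list of proteasome regulators, receptors, chaperones, shuttle factors and ubiquitin genes. Of its 32 genes found, 31 were tested, 1 passed the threshold of the study in the higher direction and 0 in the lower, beside 1.59% and 0.426% of all tested genes, and by the edgeR quasi-likelihood test 0 had an adjusted p under 0.05. That gene was Nfe2l1, which encodes NRF1. It was measured at 212, 207 and 267 CPM in shCtr and 400, 647 and 348 CPM in shOSGEP. Every shOSGEP library was above every shCtr library, the only such separation among the 31 genes, beside 3.49% of all tested genes, so that neither count stood clear of the background. The log2 ratios of the same-numbered pairs were 0.91, 1.65 and 0.38. The Log2FC was 1.02 (SE 0.422, 95% interval 0.06 to 1.99). The edgeR quasi-likelihood test gave an unadjusted p of 0.0405 and an adjusted p of 1.00, and the exact permutation test gave p = 0.1, the smallest that 3 libraries against 3 allow. The call was lost with no filter on low counts (Log2FC 1.02) and when any single library or either library pair was left out (Log2FC 0.64 to 1.32). It held with the replicate number as a block (Log2FC 0.98) and with GC and length offsets (Log2FC 1.26). The members with an antioxidant response element match, whose windows are given above, had Log2FC values of -0.69 (Psmb5), -0.62 (Psmb6), 0.21 (Psmc6), -0.57 (Psmd9), -0.07 (Psmd12) and -0.02 (Psme4).

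NRF1 is made at the endoplasmic reticulum, is extracted by the ATPase p97 (Vcp), loses its sugars through Ngly1 and is cleaved by Ddi2 before it enters the nucleus. Ngly1 was at 19.1, 2.75 and 12.5 CPM in shCtr and 19.9, 17.9 and 12.9 CPM in shOSGEP (Log2FC 0.56, SE 0.671). Ddi2 was at 61.2, 18.98 and 56.4 CPM against 56.4, 33.6 and 45.8 CPM (Log2FC -0.01, SE 0.524). In both genes shCtr replicate 2 was the lowest library. Vcp had a Log2FC of -0.37 (SE 0.452) and Nfe2l2, the related factor NRF2, one of 0.15 (SE 0.464).

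Sem1, which encodes a small lid subunit of the 19S particle outside the Psm naming, was chosen for mention after its values were seen. Its levels were 355, 268 and 231 CPM in shCtr and 336, 1481 and 264 CPM in shOSGEP. The high value stood in shOSGEP replicate 2 alone, and the Log2FC of 1.28 (SE 0.694) was 0.09 without that library. The ubiquitin receptor gene Adrm1 had a Log2FC of -0.54 (SE 0.558), the deubiquitinase genes Usp14 and Uchl5 of -0.01 (SE 0.447) and -0.28 (SE 0.587). Pomp, the maturation factor of the 20S core, was at 134, 209 and 111 CPM against 103, 201 and 122 CPM (Log2FC -0.09, SE 0.447).

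The interferon-inducible subunits take the place of the proteolytic ones in the immunoproteasome. Psmb9, which replaces Psmb6, was at 0.722, 2.31 and 0.922 CPM in shCtr and 1.12, 7.83 and 1.19 CPM in shOSGEP, near the bottom of the tested range (Log2FC 1.36, SE 0.913). These were 17 to 202 counts, and the gene overlaps Tap1 on the opposite strand, so that its reads are uncertain. Relative to Psmb6 it stood at 0.324%, 0.181% and 0.288% in shCtr and 0.625%, 1.28% and 0.300% in shOSGEP, per transcript length. The difference of 1.28 on the log2 scale gave an exact permutation p of 0.2 (two-sided), 0.4 after adjustment over the 2 ratios tested, and was higher in 3 of 3 same-numbered pairs. Psmb10, which replaces Psmb7, was at 9.48, 50.04 and 14.7 CPM against 10.4, 42.0 and 19.6 CPM (Log2FC -0.04, SE 0.748). Its ratio to Psmb7 differed by 0.15 on the log2 scale, with an exact permutation p of 0.8 (adjusted 0.8). Psmb8, which replaces Psmb5, had at most 4 counts in any library, and no ratio was formed. A floor of 3 counts corresponded to 0.116 to 0.147 CPM and covers counting error only. Per transcript length, the transcripts of Psmb6 and Psmb7 were thus more abundant than their inducible counterparts in every library. The highest ratio was that of Psmb10 to Psmb7 in shCtr replicate 2, 9.95%.

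**Figure D5:**
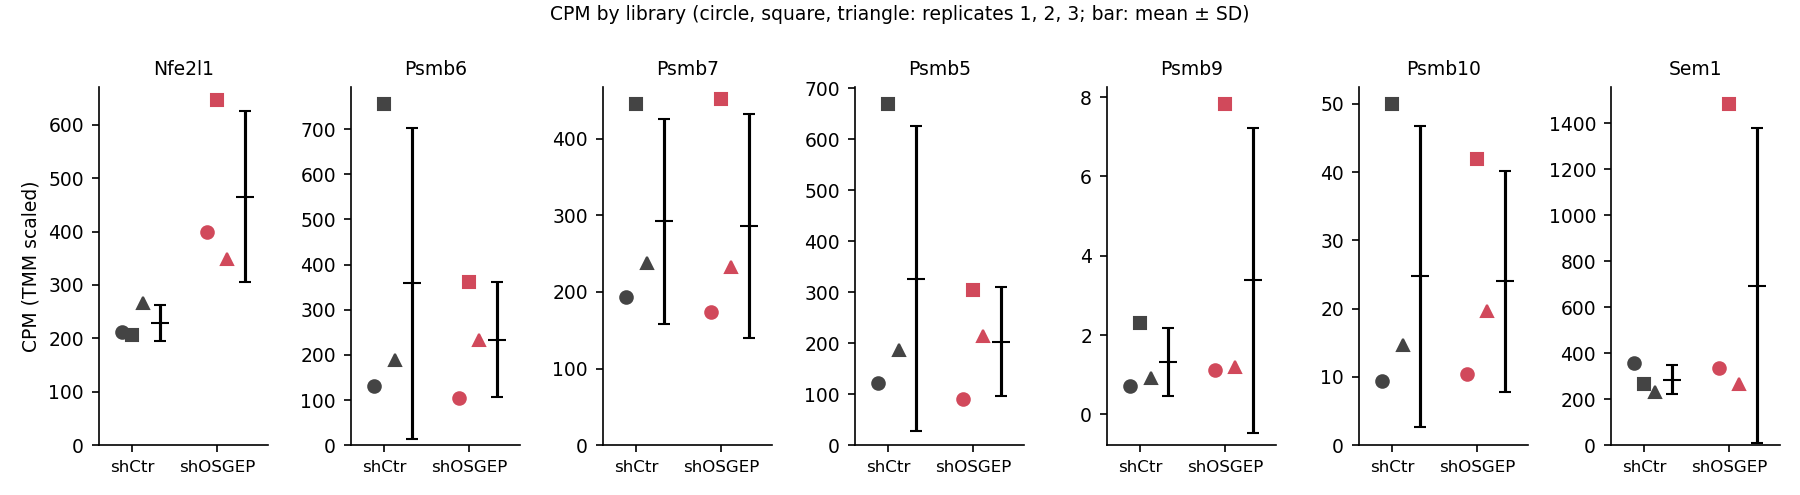
CPM by library of Nfe2l1, the 3 proteolytic subunits, 2 interferon-inducible subunits and Sem1, with separate axes; circles, squares and triangles are replicates 1, 2 and 3, shCtr in grey and shOSGEP in red, and bars give the mean ± SD of 3 libraries. The Nfe2l1 groups do not overlap (207 to 267 against 348 to 647 CPM), whereas the groups of the other 6 genes do.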

How the data were processed

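The values deposited by the authors were estimated counts per Ensembl gene for 6 polyA RNA libraries, written as whole numbers and not normalized. Per the methods of the study, reads were trimmed with TrimGalore, aligned to GRCm38 with STAR 2.6.1d and quantified with Salmon 1.4.0. Salmon divides reads among similar transcripts, so values of close gene copies are uncertain. The release of the annotation is not given in the sources used here. A strand setting was not stated.

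Genes were kept by filterByExpr (minimum count 10, minimum total 15), scaled by TMM and tested over all 12669 genes by quasi-likelihood F-tests in edgeR 4.0.16 under R 4.3.3, two-sided, with Benjamini-Hochberg adjustment and no block. DESeq2 1.42.0 and limma-voom (limma 3.58.1) were alternatives, as were other scalings and filters, a replicate block, offsets for GC content and length (natural splines, 5 degrees of freedom) and leaving out libraries. The 95% intervals are those of the Log2FC. Log2 ratios of same-numbered libraries used a prior count of 2. Gene positions, lengths and GC contents came from GENCODE M21 (GRCm38), which held 12658 of the tested identifiers. TPM used the principal transcript in place of the planned median length of coding transcripts, a choice made after that median was seen to take fragments for some genes. Promoters came from RefSeq (GRCm38.p6) and were matched by symbol, with no entry for Psma8, Psmb1, Psmb2, Psmb7, Psmc3, Psmd3, Psmd7 and Psmg2.

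Replicate numbers were treated as pairing libraries, since the deviations of same-numbered libraries from their group means correlated at 0.811, 0.557 and 0.196 over all tested genes, each above a limit of 0.1. The pairing is not clear for every number, since shCtr replicate 3 correlated with shOSGEP replicate 1 at 0.491 and shCtr replicate 2 with shOSGEP replicate 3 at 0.138. The methods of the study name 3 independent infections, and the labels do not say what a number shares.

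The members and the gene lists were chosen with earlier results of these data known. Named were Osgep, the proteolytic subunits, the activators and Psmf1, the members with the highest and lowest Log2FC and level per length in each subcomplex, members below the filter, Nfe2l1, Pomp and the inducible subunits. Adrm1, Ddi2, Ngly1, Nfe2l2, Sem1, Uchl5, Usp14, Vcp and members given only by a count, a motif or a range were named outside that rule, after their values were seen.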

Additional observations from a re-analysis of the deposited data

How the results depend on the processing

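In 18 alternatives, 0 proteasome members passed the threshold of the study and 0 reached an adjusted p under 0.05. The replicate block, which follows the pairing by replicate number, moved the median Log2FC of all members from -0.21 to -0.19 and changed no call among the members. With GC and length offsets plus the replicate block, Psma5 had an unadjusted p of 0.0435 at a Log2FC of -0.43. In the fit without a block, the spread between 3 libraries left SEs of 0.354 to 0.869 on the members' Log2FC. They were 0.250 to 0.642 with the replicate block and 0.142 to 0.360 with the offsets plus the block. The causes of the shifts below were not tested.

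Among the other pathway genes, 2 passed the threshold of the study with the offsets, alone and with the block, and 0 to 1 when libraries were left out. With no filter on low counts the gene that passed was Sem1 and not Nfe2l1. Upper-quartile scaling gave medians of -0.066 for all members and -0.11 for the other 19S genes. The offsets gave -0.35 for the 20S alpha genes, and with the block -0.26 for these and 0.16 for the activators. With libraries left out, the medians ranged from -0.47 to 0.16 for all members, -0.72 to 0.40 for 20S beta, -0.57 to 0.11 for the ATPases, -0.41 to -0.0097 for the other 19S genes, -0.35 to 0.29 for the activators and -0.64 to 0.47 for the assembly chaperones. The highest of these values came without shCtr replicate 2 for all members.

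The limma-voom fit weighted shCtr replicates 1 to 3 at 1.22, 0.142 and 6.75. It weighted shOSGEP replicates 1 to 3 at 1.22, 0.366 and 1.90. Its control side thus rested mostly on shCtr replicate 3. The sign of single Log2FC values changed as follows. Under limma-voom they were 0.011 for Psmb6, 0.015 for Psme1, 0.011 for Psmf1, -0.016 for Psma2, 0.10 for Psmb3, -0.062 for Psmd14, 0.13 for Psmg3, 0.025 for Psmg2, 0.25 for Psmg4, 0.076 for Pomp and 0.29 for Psmb10. Under upper-quartile scaling they were 0.12 for Psmb7, 0.036 for Psme1, 0.040 for Psme4, 0.033 for Psmd10, 0.11 for Psmg2, 0.13 for Psmg4, 0.050 for Pomp and 0.13 for Psmb10. With at least 10 counts in every library they were 0.030 for Psmb7, 0.032 for Psmg2, 0.034 for Psmg4 and 0.032 for Psmb10. The offsets gave 0.21 for Psme1, -0.79 for Psma2, 0.16 for Psmb3, -0.068 for Psmd14, 0.13 for Psmg3, 0.32 for Psmg4 and 0.47 for Psmb10, and with the block 0.21, -0.46, 0.14, -0.061, 0.13, 0.33 and 0.42 for the same genes and 0.12 for Psme4. The block alone gave 0.47 for Psme4, 0.0055 for Psmg4 and 0.10 for Psmb10.

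Leaving out libraries gave Log2FC ranges of -1.07 to 0.40 for Psmb5, -1.04 to 0.54 for Psmb6, -0.49 to 0.41 for Psmb7, -0.58 to 0.54 for Psme1, -0.41 to 0.87 for Psme2, -0.42 to 0.039 for Psme3, -0.55 to 0.47 for Psme4 and -0.76 to 0.25 for Psmf1. They were -0.78 to 0.17 for Psma7, -0.16 to 0.85 for Psma4, -0.29 to 0.33 for Psma2, -0.57 to 0.25 for Psmb2, -0.80 to 0.71 for Psmb3, -0.99 to 0.093 for Psmc4, -0.32 to 1.12 for Psmc6 and -0.75 to 0.21 for Psmc5. For the others they were -1.16 to 0.043 for Psmd13, -0.22 to 0.54 for Psmd14, -0.45 to 0.29 for Psmd10, -0.65 to 0.12 for Psmd8, -0.65 to 0.44 for Psmg3, -0.26 to 0.20 for Psmg2, -0.66 to 0.73 for Psmg4, -0.40 to 0.22 for Pomp, -0.16 to 2.03 for Psmb9 and -0.68 to 0.99 for Psmb10. With the median length of coding transcripts the median level per length in shCtr was 290 TPM in place of 399 TPM for the beta genes and 154 TPM in place of 96.2 TPM for the activators.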
